A study of Homo sapiens with 2 samples.

Results

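The E-protein genes TCF3 and TCF12, the inhibitor of DNA binding genes ID1, ID2 and ID3, and the cyclin D3 gene CCND3 were examined by RNA-seq in Ramos and Ramos640 cells. These 6 genes were taken by name, each had a row of its own among the 37122 rows of the count table, and the rule that names them uses no expression value. Ramos is a human Burkitt's lymphoma (BL) cell line of B-cell origin. Ramos640 was derived from it by culture in rising amounts of rituximab, an antibody against the B-cell surface protein CD20, together with normal human serum (NHS) as a source of complement. Resistance to complement-dependent killing was maintained by exposing Ramos640 every 21 days to rituximab with 20% NHS. The concentration carries the number 640, in mg/mL according to the sample labels and in μg/mL according to the methods of the study. Both lines grew in the same medium. RNA from 3 passages was pooled for each line, so there was 1 library per cell line and no difference below has a replicate check. Ramos640 is a single selected line, and what selection changed cannot be told apart from drift of the culture.

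E proteins are transcription factors of the basic helix-loop-helix (bHLH) class. They bind as dimers to a short DNA word called the E box and drive the genes of B-lineage development. ID proteins have the helix-loop-helix but no basic region, so they pair with E proteins and keep them off DNA. Cyclin D3 joins CDK4 and CDK6 to phosphorylate RB and move cells from G1 into S phase, and it is the D cyclin that germinal centre B cells depend on. In BL, mutations that free TCF3 from ID3 and mutations that stabilise cyclin D3 are recurrent, and TCF3 is known to activate both CCND3 and ID3, the gene of its own inhibitor. Genotype was not analysed here, and gene-level counts do not separate the E12 and E47 splice forms of TCF3.

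The promoters of the 3 ID genes are shown because each gene has a single start in the RefSeq table and because E proteins act through the E box. The sequences are the 250 bases before the start, from RefSeq on GRCh38.p14, written 5′ to 3′ on the strand of the gene, with any E box (CANNTG, where N is any base) in capitals.
ID1 (chr20:31605039-31605288, plus strand): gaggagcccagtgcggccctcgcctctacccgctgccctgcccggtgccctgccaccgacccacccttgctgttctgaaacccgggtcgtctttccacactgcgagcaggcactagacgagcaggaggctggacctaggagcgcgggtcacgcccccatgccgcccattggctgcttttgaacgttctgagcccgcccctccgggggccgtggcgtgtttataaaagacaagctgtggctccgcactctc
ID2 (chr2:8681806-8682055, plus strand): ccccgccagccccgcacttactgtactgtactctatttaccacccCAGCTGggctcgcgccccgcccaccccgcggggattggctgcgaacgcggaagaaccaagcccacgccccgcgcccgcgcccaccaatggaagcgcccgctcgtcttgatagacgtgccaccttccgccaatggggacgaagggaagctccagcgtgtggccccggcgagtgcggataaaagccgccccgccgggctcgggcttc
ID3 (chr1:23559502-23559751, minus strand): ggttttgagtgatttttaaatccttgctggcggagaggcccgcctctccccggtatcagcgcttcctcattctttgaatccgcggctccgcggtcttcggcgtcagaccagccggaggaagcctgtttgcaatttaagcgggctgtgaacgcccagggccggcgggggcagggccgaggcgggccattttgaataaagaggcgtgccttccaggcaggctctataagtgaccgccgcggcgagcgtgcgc
The ID2 window held 1 E box with the letters CAGCTG, which begins 205 bases before the start. The windows of ID1 and ID3 held none. CANNTG reads the same on both strands, and it occurred in 61.8% of all 35116 promoter windows of this length. The narrower CAGCTG occurred in 14.0% and CAGGTG, read on both strands as CAGGTG or CACCTG, in 17.5%. TCF3 had 1 window without an E box. CCND3 had 3 windows, of which the most upstream held 1 CACCTG, 237 bases before its start. TCF12 had 5 windows, of which 2 held 1 E box each (CACGTG and CATGTG) and neither of the narrower forms. A match of letters is not evidence of binding, and its absence says nothing about sites outside these windows.

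The libraries held 38030090 reads (Ramos) and 30871826 reads (Ramos640) assigned to genes. Size factors from the median of ratios were 1.14 and 0.876. Each count was divided by its factor, and log2 fold changes are those of Ramos640 against Ramos with 1 added to both normalised counts. Intervals are 95% intervals of counting error only. The 18778 genes whose counts summed to 10 or more, called genes tested below although no test could be run, had a median log2 fold change of -0.015. All 6 B-cell markers examined were abundant in both libraries, between 2039 reads (PAX5) and 82890 reads (CD79B), both in Ramos640. The 5 T-cell markers summed to 31 reads in Ramos and 90 in Ramos640, where CD3E had 31 and CD247 had 58, while CD3D and CD2 were at 0 in both. The 5 monocyte markers summed to 5 and 15 reads and the 4 erythroid markers to 4 and 1, with HBB and HBA1 at 0 in both. The 5 epithelial markers summed to 43 and 16. The part of any such cells in the results was not tested. MS4A1, which encodes CD20, had 9654 reads in Ramos and 1904 in Ramos640.

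ID3 was by far the most abundant of the 6 transcripts, and TCF12 was the least. ID3 had 16371 reads in Ramos and 10663 in Ramos640, which was 9589 and 8134 normalised reads per kb of exon. TCF3 had 17580 and 13559 reads, or 2419 and 2430 per kb. Its level was nearly the same in the 2 libraries. CCND3 had 12008 and 7415 reads (1826 and 1469 per kb), and its level was lower in Ramos640. ID1 had 1375 and 700 reads (977 and 648 per kb), also lower in Ramos640. ID2 had 772 and 681 reads (306 and 351 per kb), the only one of the 6 whose normalised level was higher in Ramos640 beyond counting error. TCF12 had 1243 and 834 reads (115 and 101 per kb).

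In both libraries the order by level per kb was ID3, TCF3, CCND3, ID1, ID2 and TCF12, and the counting intervals of neighbours in this order did not overlap. The order of TCF3 and CCND3 rests on the length used. Per kb of the longest annotated transcript, CCND3 stood above TCF3, at 4395 against 3253 in Ramos and 3535 against 3268 in Ramos640. Among 12092 protein-coding genes tested, ID3 was at percentile 99.3 of the level per kb in Ramos and 98.9 in Ramos640. TCF3 was at 96.1 and 96.0, and CCND3 at 94.4 and 92.6. ID1 moved from percentile 89.2 to 83.3 and ID2 from 69.4 to 72.3. TCF12 was near the middle, at 46.8 and 45.5.

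**Figure D1:**
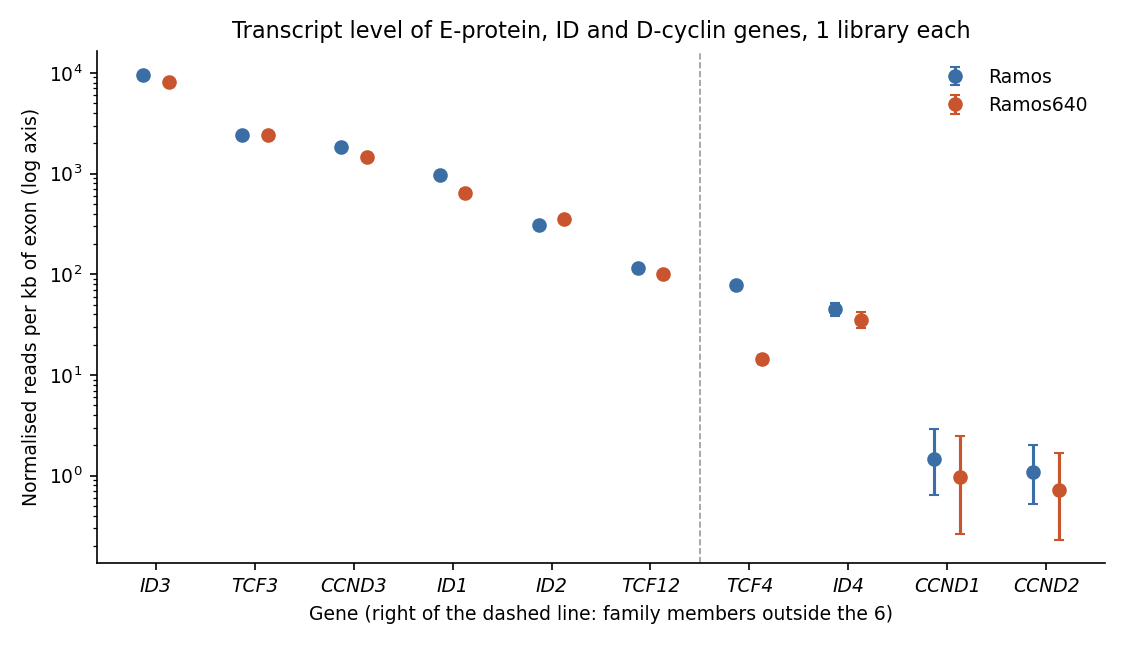
Level of each gene in normalised reads per kb of exon (log axis) in the Ramos (blue) and Ramos640 (orange) libraries, with 95% counting intervals as bars. ID3 is highest and TCF12 lowest of the 6 genes left of the dashed line, TCF4 to the right of it shows the widest gap between the libraries, and CCND1 and CCND2 lie near 1 read per kb.

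Set against each other, 4 of the 6 genes were lower in the Ramos640 library with intervals below 0, 1 was higher with an interval above 0, and TCF3 had an interval that included 0. ID1 had the widest difference, at 1.51-fold lower (log2 fold change -0.59, interval -0.73 to -0.46). It was the only member past the 1.5-fold criterion of the study, which is 0.585 on the log2 scale, and it stood just beyond it. Of all genes tested, 17.3% were lower by over 1.5-fold and 14.6% were higher. Among the 8226 genes with at least 1000 reads, which include all 6 members, these shares were 7.93% and 6.87%. A single gene of 6 does not stand out from these shares.

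CCND3 was 1.24-fold lower (log2 fold change -0.31, interval -0.36 to -0.27). ID3 was 1.18-fold lower (-0.24, interval -0.27 to -0.20), and TCF12 was 1.14-fold lower (-0.19, interval -0.32 to -0.067). ID2 was 1.15-fold higher (0.20, interval 0.049 to 0.35). TCF3 did not differ beyond counting error (0.0064, interval -0.026 to 0.039). Counting intervals excluded 0 for 5 of the 6 genes, but also for 61.2% of all genes tested and for 80.3% of those with at least 1000 reads, so this count is near the background as well, the second share above all. Such intervals take no account of variation between cultures. With an assumed coefficient of variation of 0.1 between cultures, the interval of ID1 alone excluded 0 (-1.01 to -0.17), and with 0.2 none of the 6 did.

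In bulk RNA, fewer cells that express a gene and less RNA per cell cannot be told apart. The log2 fold change in these libraries moves with the GC content of the transcript, and the members range from 40.7% (TCF12) to 62.6% (TCF3). The running median over genes of the same GC content was 0.22 for TCF3 and -0.22 for TCF12. With this trend removed, TCF3 came to -0.25 (interval -0.28 to -0.22), ID1 to -0.81, ID3 to -0.46 and CCND3 to -0.50. TCF12 (-0.012) and ID2 (0.045) then had intervals that included 0. Scaling to total counts gave TCF3 an interval below 0 (-0.11 to -0.041) and ID2 one that included 0 (-0.031 to 0.27). ID1, ID3 and CCND3 had intervals below 0 under each of these scalings and under TMM factors.

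**Figure D2:**
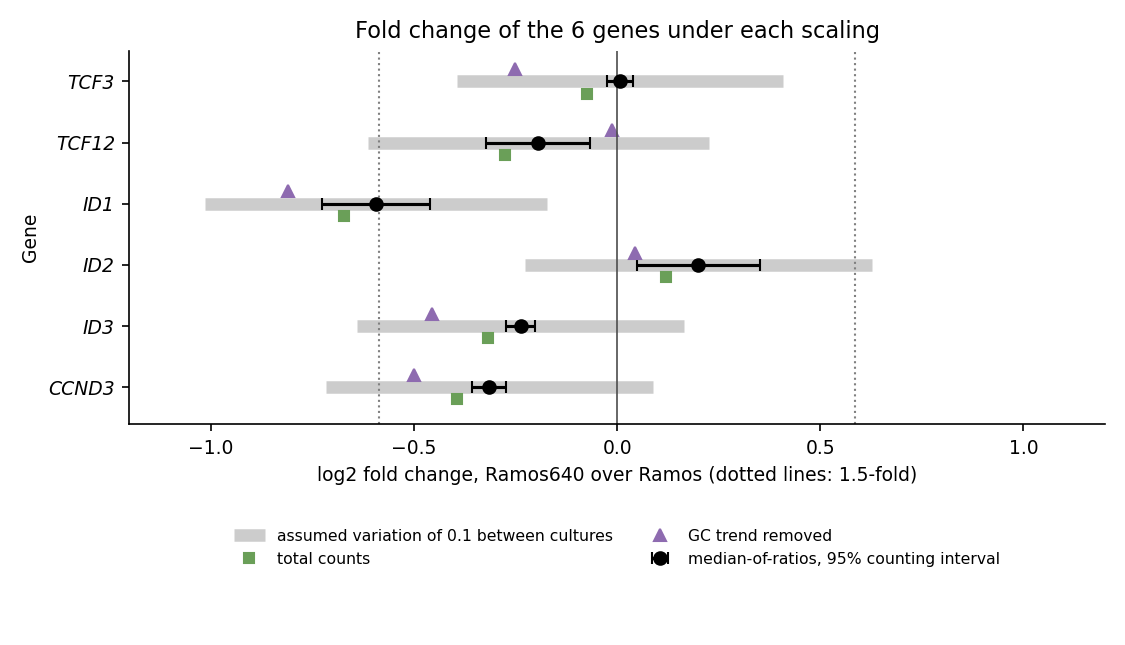
log2 fold change of Ramos640 over Ramos for each of the 6 genes. Black points with bars are the median-of-ratios values with 95% counting intervals, green squares the values on total counts, purple triangles the values with the GC trend removed, and grey bands the intervals under an assumed coefficient of variation of 0.1; ID1 alone has a grey band that lies wholly below 0.

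**Figure D3:**
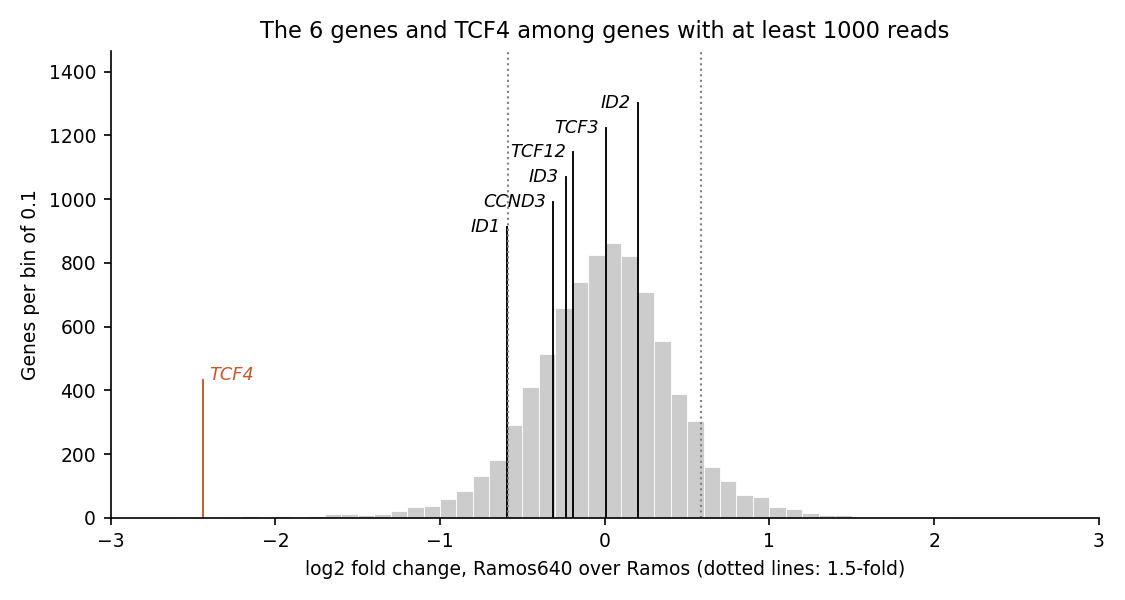
Number of genes with at least 1000 reads in each bin of 0.1 of the log2 fold change (8226 genes, of which 3 lie beyond the axis), with lines at the 6 genes (black) and at TCF4 (orange). All 6 lie within the main body of the distribution, with ID1 at the dotted 1.5-fold line, and TCF4 lies far to the left at -2.44.

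Among the genes with at least 1000 reads, ID1 was at percentile 7.77 of the log2 fold change, CCND3 at 21.3, ID3 at 27.1, TCF12 at 30.6, TCF3 at 50.1 and ID2 at 69.7. The pattern of ID1 was shared by many genes. Of 7131 other protein-coding genes with at least 1000 reads, 175 had a log2 fold change within 0.05 of it. The nearest were TMEM219, with 2554 and 1300 reads, TFRC, the transferrin receptor, with 11713 and 5961, and TTC39C, with 877 and 446. With 2 libraries this likeness is a single ratio.

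TCF3, on chromosome 19 of GRCh37 from 1609290 to 1652614, gave most E-protein reads in both libraries. The third E-protein gene, TCF4, is not one of the 6 but belongs to the same family. TCF4 reads numbered 2599 in Ramos but 367 in Ramos640, which is 5.43-fold lower (log2 fold change -2.44, interval -2.60 to -2.28). Its interval lay below 0 also with an assumed coefficient of variation of 0.4 (-4.05 to -0.83). The antisense transcripts TCF4-AS1 and TCF4-AS2 overlap TCF4 and have no row of their own. Of the reads of the 3 E-protein genes, TCF3 held 82.1% in Ramos (interval 81.5 to 82.6) and 91.9% in Ramos640 (91.4 to 92.3). TCF4 held 12.1% (11.7 to 12.6) and 2.49% (2.24 to 2.75). TCF12 held 5.80% (5.49 to 6.12) and 5.65% (5.28 to 6.04), and these intervals overlap. Per kb of exon, TCF3 made up 92.6% of the E-protein level in Ramos and 95.5% in Ramos640, and TCF4 2.99% and 0.564%. These shares rest on the length used. Per kb of the longest annotated transcript, TCF3 made up 87.8% and 94.1%, and TCF4 7.37% and 1.45%. TCF12 lies on chromosome 15 from 57210821 to 57591479. Its ratio to TCF3 per kb was 0.0477 in Ramos and 0.0415 in Ramos640. This difference of -0.20 on the log2 scale (interval -0.33 to -0.069) needs no scaling between libraries. Its sign rests on the GC trend, however, which such a ratio does not cancel. With the trend removed, TCF12 came to -0.012 and TCF3 to -0.25, so the difference had the opposite sign. TCF3 was formerly also a name of TCF7L1, which has a row of its own with 14 and 1 reads.

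The ID family was dominated by ID3, a gene on chromosome 1 from 23884417 to 23885992. It held 87.5% of the reads of ID1 to ID4 in Ramos (interval 87.0 to 87.9) and 87.7% in Ramos640 (87.1 to 88.2), so its share differed by less than counting error. ID1, on chromosome 20 from 30193086 to 30194318, held 7.35% (6.98 to 7.73) and 5.76% (5.35 to 6.18). ID2, on chromosome 2 from 8818975 to 8824591, held 4.12% (3.84 to 4.42) and 5.60% (5.20 to 6.02). ID1 and ID2 therefore differed in opposite directions within the family. The ratio of ID2 to ID1 per kb was 0.313 in Ramos and 0.542 in Ramos640, which is 1.73-fold higher (0.79 on the log2 scale, interval 0.59 to 0.99). This ratio does not depend on how the libraries are scaled. ID4, the remaining family member, had 198 and 119 reads (-0.35, interval -0.69 to -0.018).

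Reads of ID2 could include some from ID2-AS1, an antisense transcript that overlaps its start, because the use of strand is not stated. ID2B, a processed pseudogene of ID2, had 25 and 27 reads in its own row. No annotated gene overlaps ID1 or ID3.

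Nearly all D-cyclin reads came from CCND3. This gene, on chromosome 6 from 41902672 to 42018095, held 99.9% of the D-cyclin reads in both libraries. CCND1 had 8 and 4 reads and CCND2 had 10 and 5, so no difference in these 2 genes was detectable at this depth. CCND3P, a row named as a pseudogene of CCND3, had 60 and 27 reads. The ratio of CCND3 to TCF3 per kb was 0.755 in Ramos and 0.604 in Ramos640, a difference of -0.32 on the log2 scale (interval -0.37 to -0.27). CCND3 and ID3 differed far less from each other. Their ratio was 0.190 in Ramos and 0.181 in Ramos640 (-0.077, interval -0.13 to -0.022).

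The level of ID transcripts against E-protein transcripts is of interest because the proteins bind each other. ID3 to TCF3 per kb was 3.96 in Ramos (interval 3.88 to 4.05) and 3.35 in Ramos640 (3.26 to 3.43), a difference of -0.24 on the log2 scale (interval -0.29 to -0.20). For ID1 to TCF3 the difference was -0.60 (interval -0.74 to -0.46), and for ID2 to TCF3 it was 0.19 (0.039 to 0.35). Summed over ID1, ID2 and ID3 against TCF3 and TCF12, the ratio was 4.29 (interval 4.20 to 4.38) in Ramos and 3.61 (3.52 to 3.70) in Ramos640. With ID4 and TCF4 added it was 4.18 and 3.60. Per kb of the longest transcript, the ratio without ID4 and TCF4 was 4.78 and 4.04, and with them it was 4.44 and 3.99. The summed ID level was 10872 and 9133 normalised reads per kb in the 2 libraries, while that of TCF3 and TCF12 was 2534 and 2531. These are ratios of transcripts, not of proteins, and they cover counting error only.

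The members were also set beside their neighbours on the chromosome, since position played no part in their choice. The neighbours were the 10 nearest protein-coding genes a side with at least 100 reads. They spanned 0.781 Mb around TCF3, 1.94 Mb around CCND3 and 2.30 Mb around ID3. Around TCF12, ID1 and ID2 the spans were 5.68, 6.39 and 10.4 Mb, so these neighbours reach far beyond the gene. ID1 lay below most of its neighbours. The median of its 20 neighbours was 0.17, 17 of them were higher in Ramos640, and 1 of the 20 was lower than ID1. Among the 18778 genes tested, 9162 were higher in Ramos640. Of all genes tested 17.0% were lower than ID1, and 7.77% of those with at least 1000 reads. A count of 1 in 20 below ID1 does not stand out from these shares. The next genes were PSIMCT-1 on the left (0.097) and, on the right, BCL2L1, which encodes the survival protein BCL-XL and had 4739 and 5160 reads (0.50). CCND3 (-0.31) lay among neighbours with a median of 0.17, of which 2 of 20 were lower than CCND3, although the median over 5 a side was -0.10. Of all genes tested 29.7% were lower than CCND3, and 21.3% of those with at least 1000 reads. BYSL (0.38) and TAF8 (-0.099) were next to it. TCF3 (0.0064) lay among neighbours with a median of 0.25, between UQCR11 (-0.37) and REXO1 (0.29). ID3 (-0.24) and TCF12 (-0.19) differed little from the medians of their neighbours, which were -0.11 and -0.22. For ID3 this rests on the setting, because the median over 5 a side was 0.063. With the GC trend removed, ID3 came to -0.46 and the median of its neighbours to -0.13. Next to ID3 were E2F2 (-0.072) and RPL11 (0.40), and next to TCF12 were ZNF280D (0.48) and GCOM1 (0.066). ID2 (0.20) had 19 neighbours with a median of -0.13, of which SOX11, next on its left, had 122 and 43 reads (-1.11) and KIDINS220, next on its right, had 1420 and 995 (-0.13).

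TCF4, on chromosome 18 from 52889416 to 53332018, lay among neighbours that were lower as well. Of its 20 neighbours, 18 were lower in Ramos640 and 17 by over 1.5-fold, with a median of -1.51. Among the 18778 genes tested, 9612 were lower and 3248 were lower by over 1.5-fold. C18orf54 (-2.18) and TXNL1 (-1.75) were the next genes on either side of TCF4.

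**Figure D4:**
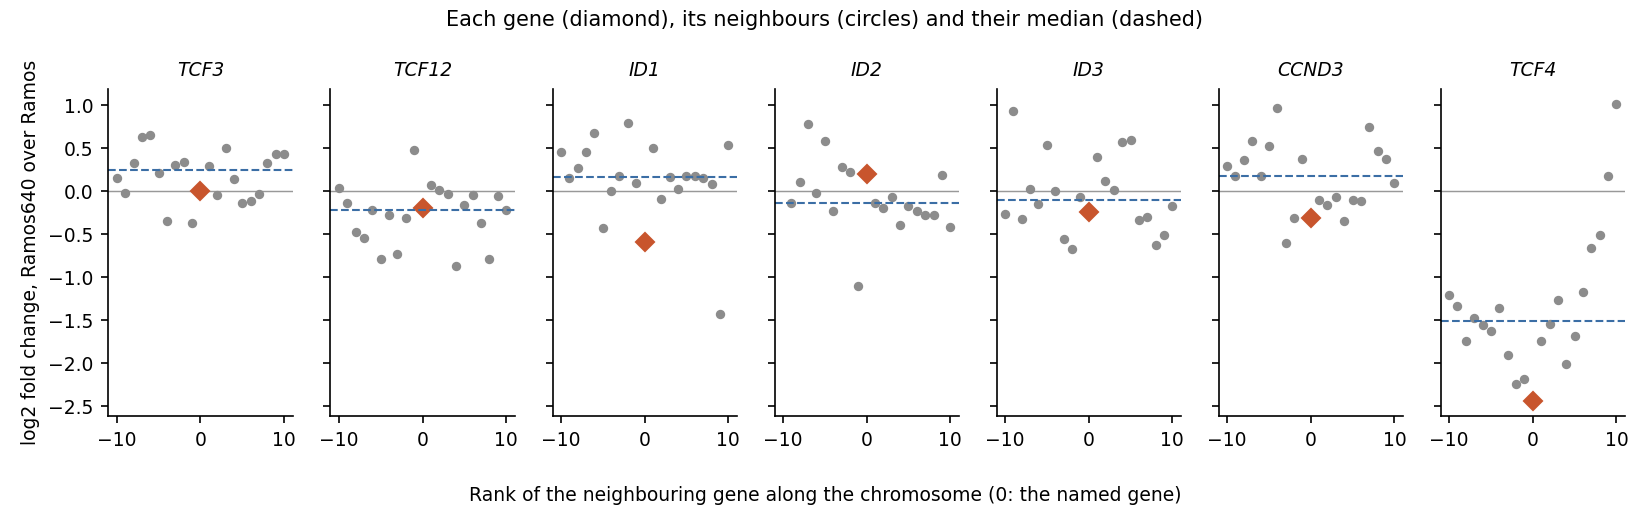
log2 fold change of Ramos640 over Ramos for each named gene (diamond at rank 0) and for the neighbouring protein-coding genes with at least 100 reads, by rank along the chromosome, with their median as a dashed line. ID1 lies below a median of 0.17, whereas TCF4 lies in a stretch of lower genes with a median of -1.51.

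Around the 6 genes, 61 genes in 6 lists were examined by role. Of the 52 with at least 10 reads, 7 were higher and 17 lower in Ramos640 by over 1.5-fold. That is 13.5% and 32.7% of them, against 14.6% and 17.3% of all genes tested. The lists overlap in CDKN1A, which is counted once among the 52. Among genes with at least 1000 reads the background shares were 6.87% and 7.93%, but the lists also hold genes with fewer reads. The counts of each list below are to be read beside these shares.

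Most partners that pair with E proteins or bridge them had no reads. Of 9 genes, 3 had at least 10 reads, and 2 of these were lower by over 1.5-fold. LYL1, a bHLH partner of E proteins, had 1750 and 692 reads (-0.96), and LMO2, a LIM-domain bridge of E-protein complexes and a germinal centre marker, had 1138 and 347 (-1.33). LDB1, which joins LMO2 in these complexes, had 3203 and 3295 (0.42). TAL1, TAL2, MSC and TWIST2 had no reads in either library, and TWIST1 had 4 and 0.

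Among 7 cofactors, all with at least 10 reads, 2 were higher and 1 was lower by over 1.5-fold, with a median log2 fold change of 0.019. RUNX1T1 (ETO), a corepressor that binds E proteins, had 29 and 237 reads (3.36, interval 2.85 to 4.02). Its relative CBFA2T3 (ETO2) went the other way, with 1371 and 628 reads (-0.74). The acetyltransferase gene KAT2A had 3728 and 4548 reads (0.67), and its relative KAT2B had 606 and 319 (-0.54). EP300 (0.0034) and CREBBP (0.14), the main coactivators of E proteins, were near 0.

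E-protein target genes of B-lineage cells were split. Of 12 genes, all with at least 10 reads, 3 were higher and 4 lower by over 1.5-fold, and the median was -0.25. PAX5, the B-cell identity factor, had 4624 and 2039 reads (-0.80), and FOXO1 had 1917 and 811 (-0.86). EBF1, which acts with E proteins in early B cells, had 692 and 362 (-0.55). VPREB1, a surrogate light chain gene, had 163 and 21 (-2.53), and VPREB3 had 438 and 117 (-1.52). IGLL1, the other surrogate light chain gene, had 90 and 147 (1.08). RAG2, a recombinase gene, had 0 and 14 reads. It reached the minimum of 10 reads through Ramos640 alone, so its place among the 3 higher genes follows from that minimum. Against a floor of 3 reads per library it was at least 6.08-fold higher. This bound takes the 14 reads as exact, and with their counting error the lower limit of the log2 fold change was 2.11. The median of the list was the same with RAG2 at the floor-based value. CDKN1A had 21 and 25 reads, and its interval included 0 (0.61, interval -0.26 to 1.54). CD79A, which encodes a chain of the B-cell receptor, had 25460 and 29007 reads (0.57). PTPN6, a phosphatase gene that TCF3 is known to repress, had 432 and 454 (0.45, interval 0.26 to 0.65).

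BMP signals through SMAD proteins and EGR factors are known inducers of ID genes, and USP1 keeps ID proteins from degradation. Of these 15 genes, 12 had at least 10 reads, of which 1 was higher and 5 were lower by over 1.5-fold, with a median of -0.40. SMAD1, which carries BMP signals, had 2761 and 1141 reads (-0.89), and its partner SMAD4 had 2207 and 548 (-1.63). SMAD4, like TCF4, lies on chromosome 18, from 48554898 to 48611415. It is among the 20 neighbours of TCF4 described above, whose median was -1.51. The receptor genes BMPR1A, with 92 and 6 reads (-3.38), and BMPR2, with 383 and 146 (-1.01), were lower too. SMAD6, an inhibitor of this pathway, had 51 and 3 reads, a ratio of 13.1 with a counting interval of 4.22 to 65.4. ACVR1 had 29 and 42 reads (0.89, interval 0.20 to 1.65). SMAD5 had 1395 and 756 (-0.50) and USP1 had 3146 and 1966 (-0.30). EGR1 had 10 and 11 reads, and EGR2 and EGR3 had fewer than 10 in all.

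In the cyclin D pathway, all 17 genes had at least 10 reads, of which 2 were higher and 4 lower by over 1.5-fold, with a median of -0.24. CDK4, a kinase partner of cyclin D3, had 16827 and 18571 reads (0.52), while CDK6, the other partner, had 2684 and 1612 (-0.35). Among the inhibitors, CDKN1B (p27) had 581 and 846 reads (0.92). CDKN2C (p18) had 2794 and 1296 (-0.73) and CDKN2B (p15) had 35 and 10 (-1.35). RB1, the substrate of the cyclin D kinases, had 1366 and 591 reads (-0.83), and its relative RBL2 had 2727 and 1365 (-0.62). AMBRA1, which directs D cyclins to degradation, had 1252 and 1193 (0.31). The intervals of CCND1 and CCND2 included 0.

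**Figure D5:**
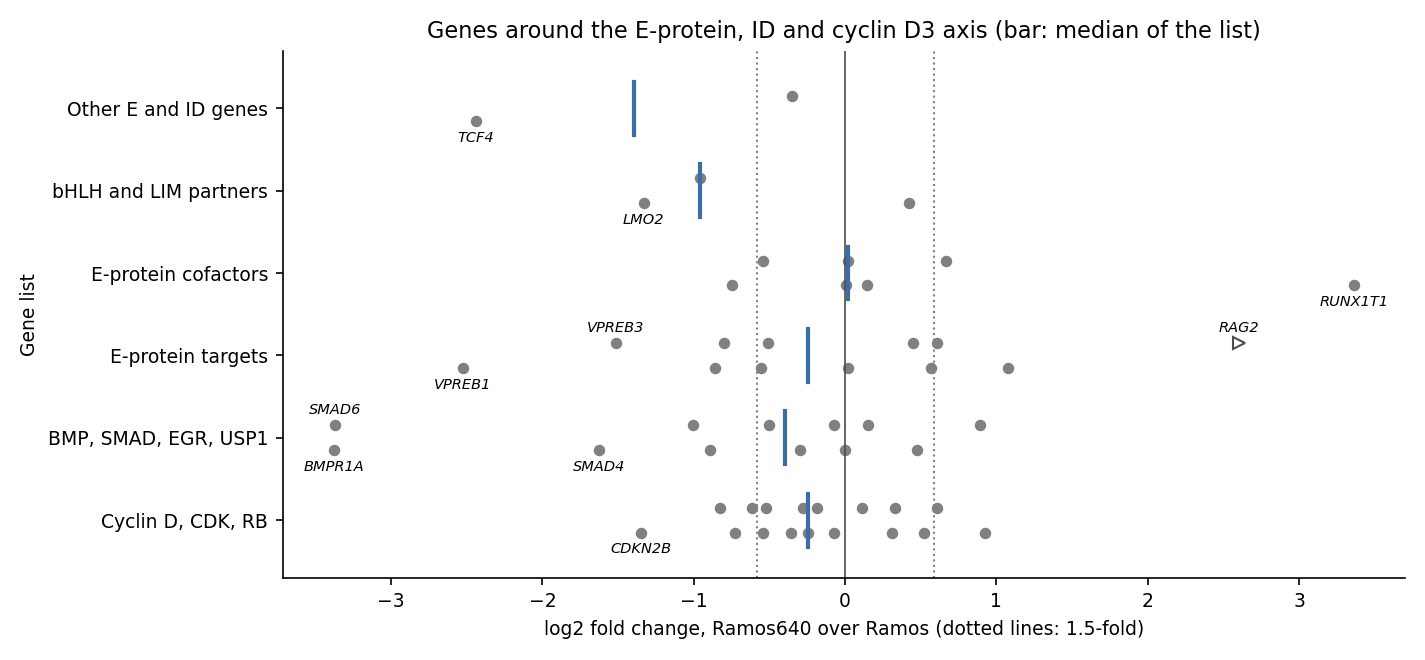
log2 fold change of Ramos640 over Ramos for the genes of each list with at least 10 reads (grey circles), with the median of the list as a blue bar and the 1.5-fold criterion as dotted lines. Genes beyond 1.2 on either side are named, and RAG2, with no reads in Ramos, is drawn at its value against a floor of 3 reads as an open triangle; the BMP, SMAD and EGR list has a median of -0.40 and holds BMPR1A, SMAD6 and SMAD4 far to the left.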

How the data were processed

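RNA-seq was performed on Ramos and Ramos640 cells, with 1 library per cell line. The authors removed adaptors from Ion Proton reads, aligned them to GRCh37 with MapSplice (v2.1.6) and deposited raw counts of reads per gene. The counting program, its annotation, its use of strand and its handling of reads that match several genes are not given in the sources used here. Of the 37122 rows, 28 carry a number in place of a gene name and were kept.

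Libraries were scaled with median-of-ratios size factors, because the study used DEseq. No dispersion can be estimated from 1 library per group, so no test was run and no p-value is given. Intervals are exact Clopper-Pearson intervals (95%) of the Ramos640 share of reads, exact conditional intervals for changes of a ratio, exact Poisson intervals for levels, and normal intervals on the log scale for summed ratios and for assumed coefficients of variation. With 1 library per cell line, these intervals cover counting error only. They take reads as independent, and reads were not deduplicated by molecular identifiers, so duplicate reads would make them too narrow. A count of 0 allows up to 3 reads, or 0.0789 CPM in Ramos and 0.0972 CPM in Ramos640. Lengths, GC content and positions came from GENCODE v44 lifted to GRCh37, matched by symbol (26511 rows) or older symbol (2227 rows), which covered 83.9% of the genes tested. Promoters came from RefSeq on GRCh38.p14. The GC trend was a running median over 501 of 10220 protein-coding genes with at least 100 reads, and its difference from the median of the trend (-0.040) was subtracted.

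TMM factors (edgeR 4.0.16), total counts, removal of the GC trend, pseudocounts of 0.1 and 10, minimums of 1, 100 and 1000 reads, a 2-fold criterion, assumed coefficients of variation, transcript length and 5 neighbours a side were the alternatives. The minimum of 1000 reads was added after seeing the data. The rule for the members uses no expression value, but members, lists and comparisons were chosen with earlier results of these data known. From the lists, the genes past the 1.5-fold criterion and the other family members and D cyclins were named by rule. The next gene on either side of a member and the 3 genes most like the member with the widest difference were named by rule as well, and any further gene was picked with its values in view. The scaling and interval steps were run on simulated counts with counting error alone and few changed genes, the intervals with total-count factors. That run held no variation between cultures and no GC trend, so it says nothing on either. Analyses used Python 3.11.15, scipy 1.17.1 and R 4.3.3. Some genes of the lists enter the counts and medians but are not reported by name.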

Additional observations from a re-analysis of the deposited data

How the results depend on the processing

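Of 30 alternative values of the 6 fold changes, 21 stayed within the counting interval of the value reported and 9 did not. On total counts TCF3 came to -0.074, ID3 to -0.32 and CCND3 to -0.39. After removal of the GC trend they were -0.25 for TCF3, -0.012 for TCF12, -0.81 for ID1, 0.045 for ID2, -0.46 for ID3 and -0.50 for CCND3. The signs of ID1, ID3, CCND3, TCF12 and ID2 were the same under each of the 5 alternatives, while TCF3, near 0, was also below 0 with TMM factors (-0.0034). With a 2-fold criterion 0 members were past it instead of 1, and the other 8 settings kept 1, including the minimum of 1000 reads that was chosen after seeing the data. The 5 intervals that excluded 0 became 4 with the GC trend removed, 1 with an assumed coefficient of variation of 0.1, and 0 with 0.2 or 0.4. Total counts and TMM factors left 5, though on total counts TCF3 entered and ID2 left.

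Per kb of the longest transcript, ID3 to TCF3 was 4.64 in Ramos and 3.92 in Ramos640, and 22 of the 26 ratios moved beyond their counting interval because another length enters, which leaves their change between libraries as it was. The median of the E-protein cofactors changed sign on total counts (-0.061) and with the GC trend removed (-0.070). For the E-protein target genes the median came to -0.55 with a minimum of 100 reads and to -0.11 with the GC trend removed. For the BMP, SMAD and EGR list these medians were -0.70 and -0.26. The neighbour median of TCF12 came to 0.017 with the GC trend removed, that of ID3 to 0.063 with 5 a side and that of CCND3 to -0.10 with 5 a side. The cause of these changes was not tested. TMM factors and total counts moved the median of all genes by -0.0097 and -0.080. No paired analysis was possible because each cell line has 1 library, and for the same reason no library could be left out. Variation between cultures, not depth, is what these data cannot measure.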
